A study of Homo sapiens with 7 samples.

Results

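The p53 response genes measured here were MDM2, MDM4, CDKN1A, GDF15, TP53I3, SESN1, FDXR, ZMAT3 and RRM2B, chosen by name, with every non-control probe whose gene name in the array files is one of these 9. They account for 9 of 36337 gene names, 17 of 50599 probes and 44 of 58717 non-control spots on each array. The arrays come from HCT116, an established near-diploid human colon cancer line, in a derivative expressing histone H2B fused to GFP. The 4 replicate samples had received bafilomycin A1, an inhibitor of the vacuolar proton pump, at 10 nM for 30 h. The study used this treatment as one of several stresses to set against aneuploid cells. Labels give 100 ng of total RNA per labelling reaction and medium with 10% serum, whereas the methods give another serum content, and all 4 samples share the line, the H2B-GFP transgene and the treatment. The paper marks lines with H2B-GFP by an asterisk, but its figure legends name HCT116 with bafilomycin A1 without one. No label says whether the 4 replicates came from separate cultures, so SDs may hold technical spread only. The methods speak of independent biological replicates for experiments evaluated statistically, without naming these arrays. The 3 untreated samples of the line were not analysed here. What follows is therefore the level of each gene in treated cells and its error, with no induced or repressed fold.

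p53 is a transcription factor that is kept scarce in unstressed cells because MDM2, a ubiquitin ligase, marks it for destruction, while the related protein MDM4 covers its activation domain. DNA damage and other stresses break this hold, and p53 then binds paired copies of a short element in its target genes, MDM2 among them, which closes a negative feedback loop. Other targets stop the cell cycle, repair DNA, change metabolism and redox balance, or are secreted. GDF15 is one of the secreted targets and is also induced by other stress pathways.

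The probes are 60-base oligonucleotides, and several genes are read by more than 1 of them with unlike spread, so those that read coding sequence are shown in full. A probe was shown in full when at least 1 of its 3 reading frames has no stop codon, or when its frame ends in a stop codon, and when that frame is known to be coding. The capitals in the first line mark the stop codon of MDM2, at base 58 of the probe. All lines run 5′ to 3′ as printed on the array, and the coordinates are those of GRCh37 in the array files. The MDM2 probe lies at chr12:69233570-69233629 on the + strand, and the 2 MDM4 probes lie at chr1:204518623-204518682 and chr1:204499870-204499929 on the + strand. The CDKN1A probe lies at chr6:36652178-36652237 on the + strand. The first TP53I3 probe crosses an exon junction within chr2:24300615-24302356, and the second lies at chr2:24300504-24300563, both on the - strand.
MDM2 A_33_P3361707: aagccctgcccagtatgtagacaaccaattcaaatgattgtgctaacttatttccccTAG
MDM4 A_23_P103503: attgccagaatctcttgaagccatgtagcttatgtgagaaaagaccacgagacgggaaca
MDM4 A_33_P3389376: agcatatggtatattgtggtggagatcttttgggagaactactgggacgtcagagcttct
CDKN1A A_24_P89457: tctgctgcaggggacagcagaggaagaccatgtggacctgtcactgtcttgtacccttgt
TP53I3 A_23_P5392: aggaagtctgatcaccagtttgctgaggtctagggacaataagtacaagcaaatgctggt
TP53I3 A_33_P3392077: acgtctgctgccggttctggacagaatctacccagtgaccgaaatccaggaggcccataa

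Of 5 further probes only the first 30 bases are shown, because they may lie in untranslated sequence. They show how base composition, which is set beside the values further on, differs between probes, from the A and T rich MDM2 and ZMAT3 probes to the FDXR and GDF15 probes with more G and C. The MDM2 probe A_23_P502750 lies at chr12:69233822-69233881 on the + strand, downstream of the stop codon shown above in the same transcript. The whole GDF15 probe lies at chr19:18499890-18499949 on the + strand. On the - strand, the SESN1 probe lies at chr6:109308477-109308536, the FDXR probe at chr17:72858650-72858709 and the ZMAT3 probe at chr3:178742161-178742220.
MDM2 A_23_P502750: tcatcctttacaccaactcctaattttaaa
ZMAT3 A_23_P113283: attgaattctttttagatctaagtaaaaat
SESN1 A_23_P93562: aggctgccattcacagtattttgctttttg
GDF15 A_23_P16523: tattggggtgaccttcttggggactcgggg
FDXR A_23_P38154: cgatctaaccccttacccatctctctactg

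As a description of the regulatory sequence, RefSeq promoter windows of GRCh38.p14, from 250 bases before to 50 bases after each annotated start, were searched on both strands at once for the palindromic p53 half-site consensus of 10 bases. An exact half-site was held by 6.63% of 35116 windows of 27305 genes. A pair of half-sites separated by at most 13 bases, and departing from the consensus at no more than 2 positions, was held by 2.93%. In a pair the fixed C and G of each half-site had to be kept. Windows were found for 8 of the 9 genes, not for RRM2B. MDM4, CDKN1A, GDF15, TP53I3 and ZMAT3 held neither an exact half-site nor such a pair. Sequence outside the windows was not searched. MDM2 held such a pair in 2 of its 4 windows, beginning 94 or 101 bases upstream of the start according to the window, at chr12:68808908-68808957 on the + strand with its flanks. SESN1 held an exact half-site in 1 of its 3 windows, 49 bases upstream, at chr6:109009013-109009052 on the - strand. FDXR held an exact half-site in 1 of 2 windows, 11 bases upstream, and it was the second of a pair that began 31 bases upstream with a spacer of 10 bases and 2 departures, at chr17:74872995-74873040 on the - strand. The arrays do not measure binding, and a match is a run of letters only. Capitals mark the half-sites.
MDM2: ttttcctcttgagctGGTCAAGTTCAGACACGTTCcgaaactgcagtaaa
SESN1: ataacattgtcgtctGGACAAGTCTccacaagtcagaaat
FDXR: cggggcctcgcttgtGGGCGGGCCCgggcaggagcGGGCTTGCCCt

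All 9 genes were detected. A probe counted as present if the scanner software placed over 50% of its usable spots well above background, and a gene as detected if 1 or more of its probes were present on all 4 arrays. All 17 probes of the set met this on every array, and by the same rule 52.5% of all 36337 gene names were detected. Values below are normalized log2 signals, that is, the log2 of the background-subtracted signal minus the array median. This median was taken over probes with a signal above 0 only. A value of 0 is thus the median of those probes, not of all probes, and 1 unit is a doubling. Hybridization strength differs from probe to probe, so levels of different probes or genes are not compared. The RNA is that of whole samples, in which fewer cells expressing a gene and less of its RNA per cell cannot be told apart. Percentiles describe only how bright a spot was among the 48976 to 50497 probes ranked on its array.

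Across all genes, the 4 arrays were alike in depth of signal, with 55.6% to 60.4% of spots well above background, no saturated spot and array medians from 5.99 to 6.27 on the log2 scale. Replicate 3 carried 2249 outlying spots against 514 to 725 on the others, and probes of low GC content read higher on it. As to cell type, 8 of 9 colon epithelial markers were detected, with KRT20 near the array median (-0.67 to 0.51) and VIL1, the brush border protein villin, on no array. Of leukocyte markers 2 of 4 were detected, of endothelial markers 2 of 3 and of fibroblast markers 1 of 5. The summed signal of the epithelial list was 532076 to 636842, against 198 to 415 for leukocyte, 313 to 464 for endothelial and 418 to 689 for fibroblast lists. The lists differ in their number of genes and in their probes, so these sums do not measure relative amounts of RNA. PECAM1, COL1A2, COL3A1 and PDGFRB were well above background on no array, while COL1A1 reached 2.62 to 3.26.

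**Figure D1:**
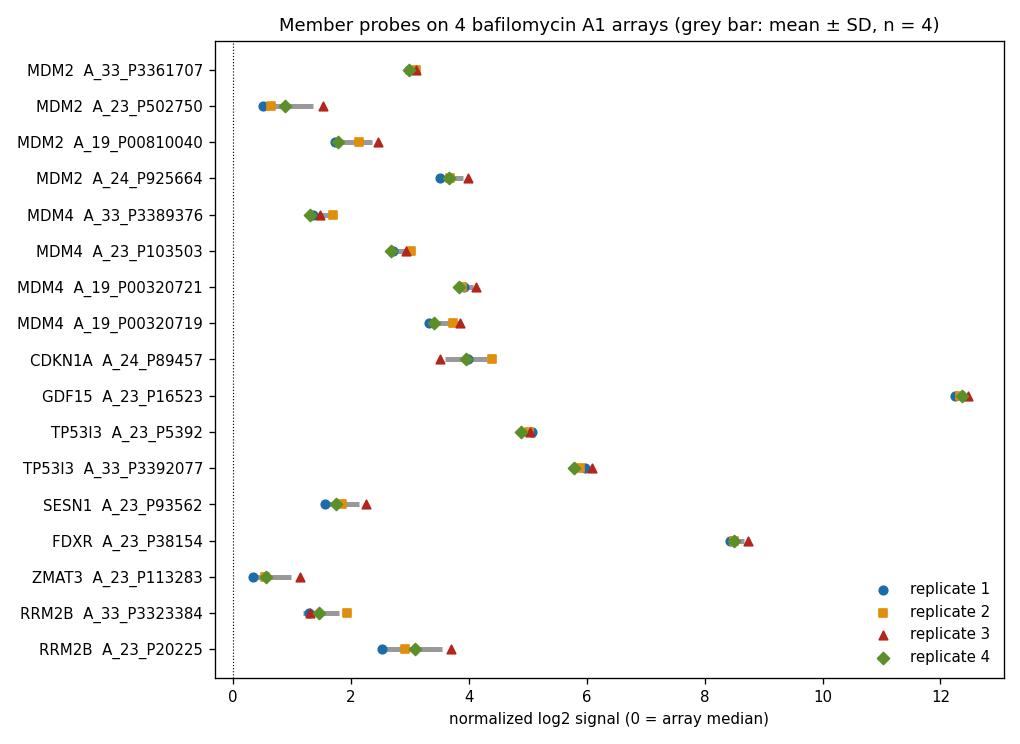
Normalized log2 signal (horizontal axis, 0 is the array median) of the 17 probes of the 9 genes, one row per probe and one symbol per replicate array, with the mean ± SD (n = 4) as a grey bar. All probes lie above the array median on every array, GDF15 between 12.24 and 12.47, and the widest bars belong to RRM2B A_23_P20225 and MDM2 A_23_P502750.

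MDM2, the ubiquitin ligase and feedback inhibitor of p53, was read by 4 probes of 1 transcript, and their spread between arrays differed widely. The probe over the end of the coding sequence, A_33_P3361707, gave 2.98, 3.10, 3.11 and 2.99 on replicates 1 to 4. This is the tightest of all 17 probes, at 3.05 ± 0.07 (SD, n = 4). A_23_P502750, downstream of the stop codon, gave 0.51, 0.65, 1.53 and 0.89, with replicate 3 the highest and an SD of 0.45. A_19_P00810040, at chr12:69236905-69236964, gave 1.74, 2.13, 2.45 and 1.78, and A_24_P925664, at chr12:69238891-69238950, gave 3.51, 3.67, 3.98 and 3.67. Replicate 3 was thus the highest and replicate 1 the lowest with each of the 4 probes, but the distance between them ran from 1.09-fold with the coding probe to 2.03-fold with A_23_P502750. GC content was 41.7% in the coding probe, 28.3% in A_23_P502750 and 35.0% in the other 2. Taken as the median over its probes, MDM2 was 2.36, 2.62, 2.78 and 2.38, or 2.54 ± 0.20, a span of 1.34-fold.

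Since A_23_P502750 was printed as 10 spots per array, the reading error within an array could be given. Repeated spots share whatever moved the whole array, so they do not measure the error between samples. On replicate 3 the 9 usable spots ran from 1.25 to 1.80. The highest spot on any other array was 1.18, on replicate 4, so the spots of replicate 3 did not overlap with those of the rest. Within an array the SD of single spots was 0.18 to 0.29, and the standard error of their mean was 0.061 to 0.096. The SD of 0.45 between arrays is that of values averaged over spots, so the standard error is its counterpart.

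MDM4, the second inhibitor of p53, had about the same SD as MDM2 as a gene, 0.205 against 0.201. Its 10-spot probe A_23_P103503 gave 2.71, 3.01, 2.94 and 2.68, and its spots overlapped between all arrays. Single spots had an SD of 0.21 to 0.24 within an array, and the standard error of their mean was 0.066 to 0.075. Between arrays the SD of the values averaged over spots was 0.16, above that standard error. The other coding probe, A_33_P3389376, gave 1.36, 1.69, 1.48 and 1.31. On these 2 probes replicate 2 was the highest array. The 2 probes farther along the transcript, A_19_P00320721 at chr1:204526416-204526475 (3.92, 3.89, 4.12 and 3.83) and A_19_P00320719 at chr1:204526931-204526990 (3.33, 3.73, 3.86 and 3.40), were highest on replicate 3. Their GC content was 38.3% and 35.0%, against 45.0% in the coding probes. As a gene MDM4 was 3.02, 3.37, 3.40 and 3.04, or 3.21 ± 0.20 (n = 4), with replicates 2 and 3 above replicates 1 and 4 by more than the distance within either pair.

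**Figure D2:**
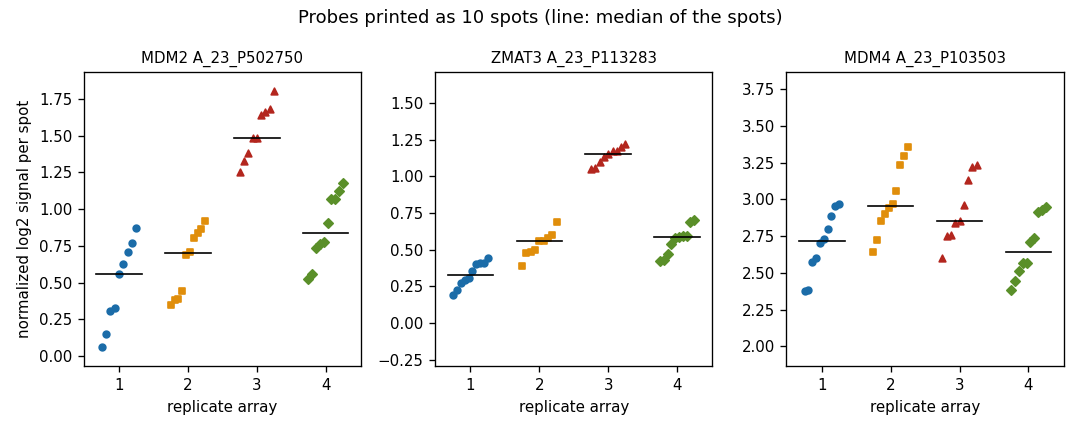
Normalized log2 signal of each usable spot (vertical axis, each panel 2 units high) on replicate arrays 1 to 4 for the member probes printed as 10 spots, with the median as a line. Spots of replicate 3 lie above all others for MDM2 (from 1.25) and ZMAT3 (from 1.05), while MDM4 spots overlap between arrays.

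CDKN1A, which encodes the cyclin-dependent kinase inhibitor p21 and carries out much of the p53 cell cycle arrest, spanned 1.85-fold between arrays. Its 1 probe gave 3.98, 4.39, 3.50 and 3.95 on replicates 1 to 4. Replicate 2 was the highest and replicate 3 the lowest, the reverse of replicate 3 in the other 8 genes. The mean was 3.95 ± 0.36 (SD, n = 4), and 18.7% of detected genes had a larger SD. Without replicate 2 the span was 1.39-fold and without replicate 3 it was 1.36-fold. The spot stood between the 81.1st and the 86.5th percentile of brightness. With 1 spot per array there is no error within an array to set beside this spread.

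GDF15, a secreted cytokine of the TGF-beta superfamily that signals to the brainstem through GFRAL, gave one of the brightest spots on every array. Signals were 373931, 362619, 397356 and 333375 on replicates 1 to 4, which ranked 10th, 6th, 7th and 6th among the probes of the array. None of these spots was flagged as saturated. On the normalized scale they were 12.24, 12.34, 12.47 and 12.36, or 12.35 ± 0.09 (n = 4), a span of 1.17-fold. Of all detected genes 92.3% had a larger SD. The SD of GDF15 was the smallest of the 9 with this normalization but not with the processed signal (0.081, TP53I3 0.063), the median over all probes (0.171, TP53I3 0.092), normexp and quantile normalization (0.040, FDXR 0.035) or the GC trend taken off (0.129, MDM2 and TP53I3 0.087), nor without replicate 3 or replicate 4. For the 19 detected genes within 0.5 log2 units of the same level, the median SD was 0.096. Without untreated arrays, how much of this brightness belongs to the treatment was not tested. The paper lists GDF15 among the genes raised in all its HCT116 and RPE1 derived aneuploid lines. Of its marker genes it names FRY alone as similarly raised by its stresses.

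Of the genes around GDF15, its receptor GFRAL was well above background on no array, whereas RET, the co-receptor, was detected at 1.04, 1.12, 1.50 and 1.08. ATF4, a transcription factor of the integrated stress response that also induces GDF15, gave 10.86, 10.94, 11.14 and 10.99. DDIT3, its partner CHOP, gave 4.68, 5.16, 4.82 and 4.73, and EGR1 gave 7.61, 7.93, 7.85 and 7.82. Each of these 4 detected genes differed between arrays by less than 1.4-fold, and 5 of the 6 genes of this list were detected. SP1 is described with the most variable genes below.

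Among the metabolic and redox targets, TP53I3 and FDXR each spanned less than 1.4-fold between arrays and SESN1 more. TP53I3, a quinone oxidoreductase, gave 5.07, 5.02, 5.04 and 4.89 with A_23_P5392 and 5.96, 5.89, 6.09 and 5.79 with A_33_P3392077. Replicate 4 was the lowest array with both probes, and the gene was 5.47 ± 0.10 (SD, n = 4). FDXR, the mitochondrial ferredoxin reductase that feeds electrons to steroid and iron-sulfur cluster synthesis, gave 8.43, 8.51, 8.73 and 8.49. Its mean was 8.54 ± 0.13, with replicates 1, 2 and 4 within 0.08 of each other and replicate 3 above them. SESN1, a sestrin that restrains mTORC1, gave 1.56, 1.85, 2.25 and 1.75. Its span was 1.62-fold and its SD 0.29, with replicate 3 the highest and replicate 1 the lowest. Without replicate 3 SESN1 spanned 1.23-fold with an SD of 0.15, and with the GC trend described below taken off its SD was 0.17, under the 0.21 of FDXR.

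ZMAT3, a zinc finger protein that binds RNA, had 1 array whose spots all lay clear of the others. The values were 0.33, 0.54, 1.14 and 0.56 on replicates 1 to 4, or 0.64 ± 0.35 (n = 4). The probe was printed as 10 spots, which ran from 1.05 to 1.22 on replicate 3 and reached at most 0.70 on any other array. Spots within an array had an SD of 0.06 to 0.10. Here too the spots share whatever moved their array, so this says how well each array was read and not that the sample differed. The 4 gene values nonetheless fell short of Dixon's critical value for 1 array apart, at a ratio of 0.715, which is the gap to the nearest array over the whole range.

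The probes of RRM2B, the small subunit of ribonucleotide reductase that p53 induces for DNA repair, disagreed on which array was high. A_33_P3323384 gave 1.29, 1.94, 1.31 and 1.46, with replicate 2 the highest. A_23_P20225, farther along the transcript, gave 2.53, 2.91, 3.70 and 3.09, with replicate 3 the highest and the largest SD of the 17 probes, 0.49. Both have a GC content of 35.0%. The median over the probes, 1.91, 2.42, 2.50 and 2.28, or 2.28 ± 0.26 (n = 4), hides this disagreement. On replicate 3 the first probe was 0.19 below its own 4-array mean and the second 0.64 above it.

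Over the set, 4 of the 9 genes (CDKN1A, ZMAT3, SESN1 and RRM2B) spanned more than 1.4-fold between the lowest and the highest array. The study used this fold as its limit for a change between aneuploid and diploid cells. Here it is set against the range of single arrays, which is another measure. Among all 19083 detected genes 46.4% spanned that far, and the share in the set lies close to this. The median SD of the 9 genes was 0.205, against 0.208 over all detected genes, and 5 of the 9 lay below the latter. The figures over all genes include probes that were not detected, of which the set has none. With only probes detected on all 4 arrays, the median SD over all detected genes was 0.193, and 40.1% spanned that far. The set kept 0.205 and 4 of 9, and only GDF15, TP53I3 and FDXR then lay below the median. None of the 9 had 1 array apart by Dixon's ratio, which 8.48% of detected genes had. Replicate 3 decided the count of wide spans: without it only RRM2B spanned more than 1.4-fold, while the share over all detected genes fell to 21.9%. The trend of each array on probe GC content was also taken off, a treatment chosen after seeing the data. Of the 9 gene values CDKN1A alone then passed, against 37.7% of all detected genes. Both RRM2B probes still spanned more than 1.4-fold, each with an SD of 0.36. They were highest on replicates 2 and 3 in turn, and only their median did not pass.

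**Figure D3:**
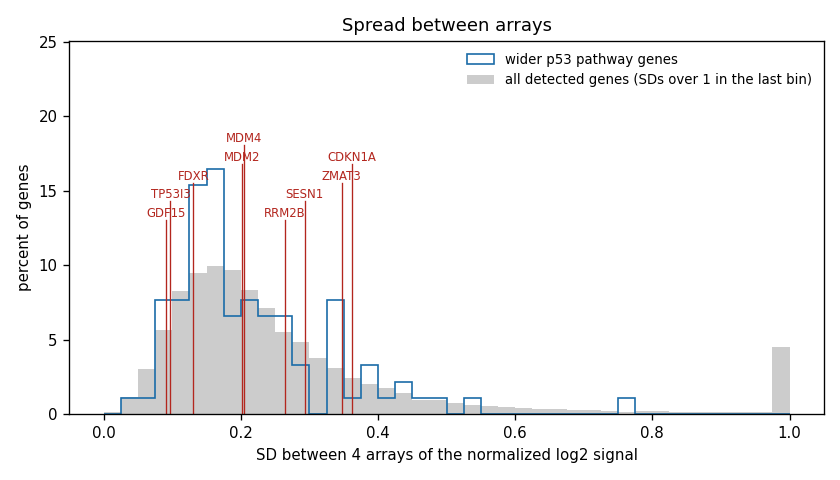
Percent of genes (vertical axis) by SD between the 4 arrays (horizontal axis, normalized log2 signal) for all detected genes in grey and wider p53 pathway genes as a blue outline, with the 9 genes as red lines whose height has no meaning. With this normalization the members run from 0.09 (GDF15) to 0.36 (CDKN1A), on both sides of the median of all detected genes, 0.208.

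The arrays moved the genes of the set in a shared way. Replicate 3 was the highest array for 8 of the 9 genes and replicate 1 the lowest for 7, whereas replicate 3 was highest for 48.5% of all detected genes and replicate 1 lowest for 26.9%. The mean deviation of the 9 genes from their own 4-array means was -0.17, 0.07, 0.17 and -0.08 on replicates 1 to 4, against -0.02, 0.03, 0.07 and -0.09 over all detected genes. Under normexp with quantile normalization replicate 3 was highest for 4 of the 9 and for 37.9% of all detected genes, so the count depends on the normalization. The 9 genes are read on the same 4 arrays and share whatever an array did to all its spots.

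**Figure D4:**
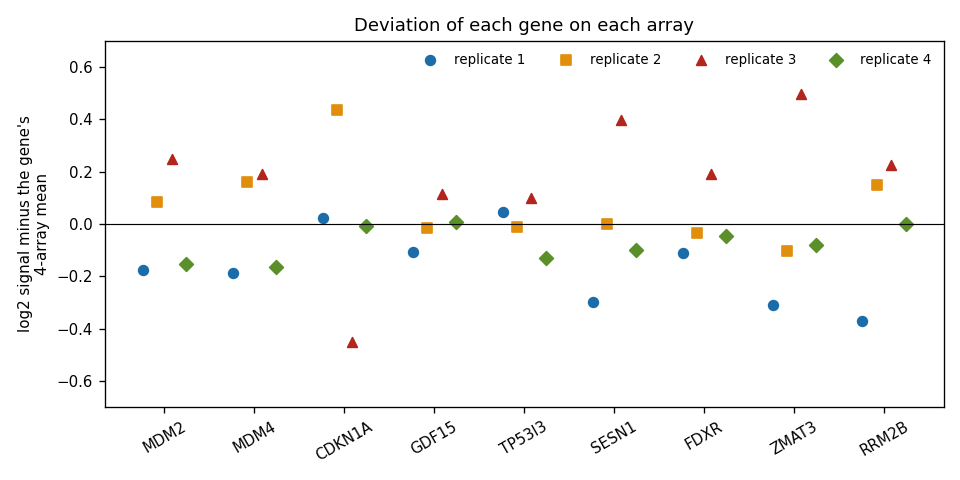
Deviation of each of the 9 genes from its own 4-array mean (vertical axis, log2 units) on replicate arrays 1 to 4. Replicate 3 (red triangles) is the highest for every gene but CDKN1A, where it is lowest at -0.45, and replicate 1 (blue circles) is the lowest for 7 genes.

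Probe GC content moved with these deviations. The 17 probes had a median GC content of 38.3% (28.3% to 55.0%), against 45.0% over the 24633 probes detected on all arrays, and 9 of the 17 (52.9%) had at most 40%, against 35.0% of detected probes. On replicate 3 the 9 probes of at most 40% GC deviated by a median of 0.40, and 8 of the 9 lay above 0, the exception being RRM2B A_33_P3323384. The 8 probes of more than 40% deviated there by a median of 0.08, with CDKN1A at -0.45. On replicate 1 all 9 probes of at most 40% GC lay below 0, by a median of -0.29. Over all detected probes the medians on replicate 3 were 0.23 at up to 40% GC and 0.02 above, and on replicate 1 they were -0.12 and 0.02. As a description across probes, which share the array and are not replicates, Pearson's r of deviation with GC content was -0.62 on replicate 3 and 0.74 on replicate 1 over the 17 probes, and -0.39 and 0.38 over the 24633. After the trend was taken off, r over the 17 probes was -0.16 and 0.29, 13 of the 17 had a smaller SD, and replicate 3 was highest for 6 of the 9 genes and for 39.8% of all detected genes. The SD of MDM2 A_23_P502750 was then 0.22 and that of ZMAT3 0.20, while CDKN1A kept 0.30 and FDXR had 0.21, above its 0.13 before.

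**Figure D5:**
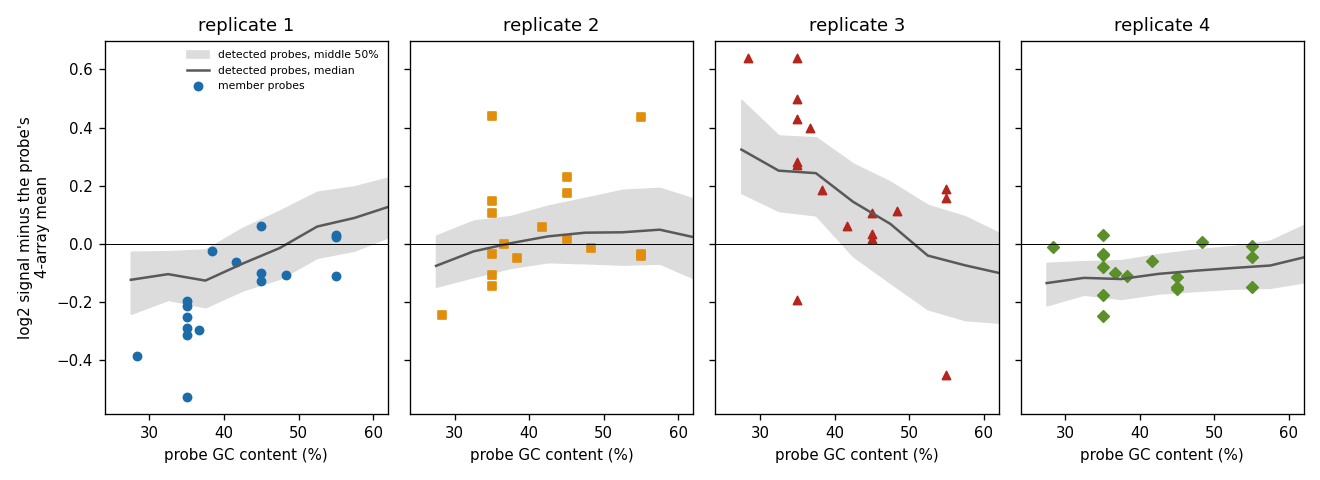
Deviation of a probe from its own 4-array mean (vertical axis, log2 units) against its GC content (horizontal axis, percent), one panel per replicate array, with the 17 member probes as symbols. A line and a band give the median and middle 50%, in bins of 5% GC, of those of the 24633 detected probes with 25% to under 65% GC. Member probes of low GC content lie low on replicate 1 and high on replicate 3, as the line does.

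The wider p53 pathway was read through 100 further genes in 10 lists, all of which were found on the array, 4 of them under an older symbol. Of these, 91 were detected, 7 were well above background on no array, and 34 of the 91 (37.4%) spanned more than 1.4-fold, against 46.4% of all detected genes. The members are counted within their lists from here on. All 19 regulators of p53 were detected, and 6 of them spanned more than 1.4-fold. All 5 damage kinases upstream of p53 were detected, 1 of them spanning that far, as were all 10 cell cycle targets (5 spanning), all 16 apoptosis targets (8 spanning) and all 7 DNA repair targets (4 spanning). Of metabolism and redox targets 10 of 11 were detected (4 spanning), and GLS2, the mitochondrial glutaminase, was well above background on no array. Of secreted, surface and other targets 18 of 22 were detected (5 spanning), and EDA2R, a receptor of the TNF superfamily, TRIM22 and SPATA18 were well above background on no array. TP53TG1 reached that level on 2 arrays. Of the p53 family, TP73 was detected at 0.30, 0.37, -0.07 and 0.07 on replicates 1 to 4, and TP63 was well above background on no array.

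Partners and paralogs of the 9 genes were detected in 9 of 11 cases, 5 of them spanning more than 1.4-fold. The large subunit RRM1 gave 6.17, 6.56, 6.70 and 6.36, and RRM2, the small subunit used in S phase, gave 4.08, 4.55, 4.88 and 4.46. Both had replicate 3 highest and replicate 1 lowest, as the RRM2B gene value had. Of the sestrins, SESN2 gave 3.38, 3.90, 3.25 and 3.55 and SESN3 gave -0.55, 0.08, -0.08 and -0.57, both highest on replicate 2, unlike SESN1. FDX1, a ferredoxin that receives electrons from FDXR, gave 2.16, 2.43, 2.57 and 2.11, and FDX2, its paralog, 5.46, 5.35, 5.49 and 5.45. Of the kinase inhibitors related to CDKN1A, CDKN1B (p27) gave 3.34, 3.45, 3.47 and 3.27 and CDKN1C (p57) 8.10, 8.26, 8.35 and 7.98, so neither shared the low value of CDKN1A on replicate 3. CRYZ, related to TP53I3, gave 0.86, 0.92, 1.36 and 0.75. ZMAT4 was well above background on no array and ZMAT1 on 1 array.

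The 3 wider genes with the largest SD were POLH, PRKDC and SP1. POLH, a translesion DNA polymerase, gave -0.90, -0.05, 0.64 and -0.95 (SD 0.76), and 1 of its 2 probes, A_23_P422718 with 25.0% GC, was detected on only 1 array. Its other probe gave 2.24, 2.59, 2.73 and 2.45, with an SD of 0.21. PRKDC, the catalytic subunit of DNA-dependent protein kinase, gave 2.06, 2.60, 3.40 and 2.68 (SD 0.55), and both its probes had replicate 3 highest and replicate 1 lowest. SP1, a general transcription factor, gave 4.42, 4.35, 5.43 and 4.60 (SD 0.50). In all 3 genes replicate 3 was the highest array, as it was for 56 of the 91 detected wider genes (61.5%) and for 48.5% of all detected genes.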

How the data were processed

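Total RNA of 4 bafilomycin A1 samples was labelled with Cy3 and hybridized by the authors to single-colour Agilent arrays, 1 per sample. The deposited files hold linear intensity values per spot as written by Agilent Feature Extraction 10.7.3.1, background-subtracted and not normalized between arrays, with other columns that flag saturated spots, outlying spots and spots well above background. The precision is limited by the number of arrays. Because the 4 arrays sat on 1 slide read in 1 scan, neither could be tested as a batch.

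From these, control and outlying spots were left out, spots of a probe were averaged, log2 was taken and the array median over non-control probes with a signal above 0 was subtracted. Gene values are medians over probes, as in the methods of the study, and means ± SD over arrays are given. No test between groups was possible. The statistics of spread were tested on simulated data. The members and lists were chosen with earlier results of these data known. Named genes are the 9 members, the 3 wider genes of largest SD, list genes well above background on no array (up to 5 per list), the partners and paralogs, and, chosen beyond that rule, TP73, TP53TG1, the genes around GDF15 and 7 wider genes with 1 array apart. One gene of the wider lists is counted but not reported by name here. Older symbols were looked up in RefSeq names of GRCh38.p14.

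Other settings tried were the software's processed signal with the array's 75th percentile as zero, normexp with an offset of 50 and quantile normalization in limma 3.58.1 (R 4.3.3), the median over all probes, other probe and detection rules, outlying spots kept, each array left out, and, added after seeing the data, the quadratic trend of each array on probe GC content taken off. Python 3.11.15 with numpy 2.4.6, pandas 2.3.3 and matplotlib 3.10.9 was used.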

Additional observations from a re-analysis of the deposited data

Results flagged for a closer look

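By Dixon's ratio, the gap of the outermost array over the whole range, no array stood apart in any of the 9 genes or their 17 probes. Chance gives such a call in about 5% of groups. Of the 91 detected wider p53 pathway genes 7 had 1 array apart, as had 8.48% of all detected genes. Replicate 3 was the high array for 5 of them. RCHY1, a ubiquitin ligase for p53, had a ratio of 0.933, with 1.32 on replicate 3 against 0.62 to 0.67. PERP, a desmosomal p53 target, had 0.884, NINJ1, which ruptures the plasma membrane of dying cells, 0.866, PLK3, a polo-like kinase, 0.851, and CDKN2A, the locus of p16 and ARF, 0.850. GADD45A, a growth arrest gene, was high on replicate 2 with a ratio of 0.864. PRODH, proline dehydrogenase, was low on replicate 4 (-0.48) with a ratio of 0.836. What set these arrays apart was not tested.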

How the results depend on the processing

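In the settings run for detection, which leave out the GC trend, 9 of the 9 genes were detected, and 91 to 96 wider genes. Over all 36337 gene names, 19083 were detected with the main rule, where 91 wider genes were. With the software's flag for a positive and significant signal, 23750 names and 96 wider genes were detected. The number of the 9 genes spanning more than 1.4-fold was 4 (46.4% of all detected genes), and 1 (37.7%) with the GC trend taken off. With each array left out it ran from 1 without replicate 3 (21.9%) to 4 without replicate 4 (39.5%). It was 3 with the processed signal (39.1% of all detected genes), 3 with normexp and quantile normalization (15.5%) and 6 with the median over all probes (51.4%). The median SD of the 9 genes was 0.205 (0.208 over all detected genes). With the processed signal it was 0.138 (0.184) and with normexp and quantile normalization 0.103 (0.112), all detected genes in brackets. With each array left out it ran from 0.143 without replicate 3 (0.146) to 0.237 without replicate 2 (0.215). Wider genes spanning more than 1.4-fold numbered 34 of 91, while 46.4% of all detected genes did. They were 14 with normexp and quantile normalization (15.5%) and 21 with the GC trend taken off (37.7%), shares of all detected genes in brackets. With each array left out they ran from 14 without replicate 3 (21.9%) to 30 without replicate 4 (39.5%). The cause of these shifts was not tested. No paired analysis was possible because only the treated group was analysed.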
